A study of Mus musculus with 2 samples.

Results

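The 10 genes described here are the PGC-1 family of transcriptional coactivators (Ppargc1a, Ppargc1b and Pprc1), the estrogen-related receptors (Esrra, Esrrb and Esrrg), their muscle partner Perm1, the nuclear respiratory factors Nrf1 and Gabpa, and Tfam, the factor that packages and transcribes mitochondrial DNA. They were chosen by name, with earlier results of these data known, and all 10 were found among the 34745 genes of the count table. RNA was sequenced from whole gastrocnemius, a calf muscle, of C57BL/6 mice that were 8 weeks old. A Cipc flox/flox library, named for a Cipc gene flanked by loxP sites, was set against a Cipc scKO library, with 1 library per genotype. The series title speaks of deletion in satellite cells, the stem cells of muscle, and of mdx mice, which lack dystrophin. The labels of the libraries name neither mdx nor the Cre driver, and they do not say whether animals were pooled. The reading of scKO as a deletion in satellite cells therefore rests on the title, and whether the muscles were dystrophic is not known here.

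PGC-1 proteins do not bind DNA themselves. They are recruited by DNA-binding factors, among them the estrogen-related receptors (ERRs), NRF-1 and GABP, and raise transcription of nuclear genes for respiration, fatty acid oxidation and the upkeep of mitochondrial DNA. In skeletal muscle Ppargc1a is known for its induction by endurance exercise and its high activity in oxidative fibres. Nrf1 here is nuclear respiratory factor 1, a different gene from Nfe2l1, which shares the abbreviation.

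Total counts were 14727219 in flox/flox and 13842100 in scKO, and the 12662 genes with a summed count of at least 20 were compared (called tested genes below). All 10 genes passed this minimum, with Nrf1 the lowest at a summed count of 186. Cipc itself had 658 flox/flox counts and 111 scKO counts, a log2 ratio of −2.51 (−2.82 to −2.22). Ratios are scKO over flox/flox after TMM scaling of the library sizes, and brackets after a value give 95% intervals that cover counting error only. With 1 library per genotype there is no measure of the spread between animals and no p-value. Each difference below is one between these libraries, not between genotypes.

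None of the 10 genes was 2-fold apart, where 3.40% of all tested genes were at least 2-fold higher or lower. Their log2 ratios ran from −0.21 to 0.30 with a median of 0.18, and the median over all tested genes was 0.0021. The ratio was above 0 for 9 of the 10 genes, with Tfam as the exception, and for 6385 of the 12662 tested genes. One of the 9, Nrf1, had 93 counts in both libraries, so its ratio of 0.05 came from the scaling alone. Intervals lay above 0 for 3 genes (Ppargc1a, Esrra and Perm1), below 0 for 1 (Tfam) and included 0 for the remaining 6. Among all tested genes, 12.8% had an interval above 0 and 12.3% an interval below 0. Both shares were larger among the 2861 genes with a summed count of at least 1000, a depth class added after the data were seen, at 23.1% and 20.03%. Of the 5 genes described here that reached this depth, 3 had an interval above 0, 1 had an interval below 0, and that of Gabpa included 0.

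**Figure D1:**
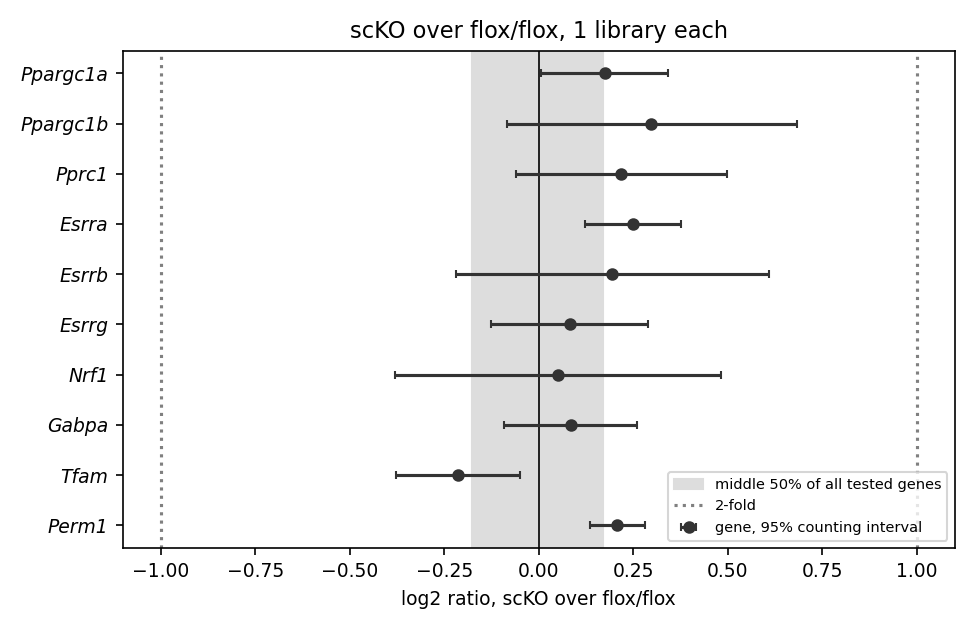
The log2 ratio (x axis, scKO over flox/flox) is drawn for each of the 10 genes as a point with its 95% counting interval. The grey band spans the middle 50% of all tested genes (−0.18 to 0.17) and dotted lines mark 2-fold; 9 points lie to the right of 0 and Tfam, at −0.21, lies to the left.

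Among the coactivators, Ppargc1a, which encodes PGC-1α, had 561 flox/flox counts and 611 scKO counts. These were 38.6 and 43.6 CPM (counts scaled to a common library size), so scKO was the higher library by 12.8%. The log2 ratio was 0.17, with an interval (0.0066 to 0.34) whose lower bound almost touched 0. With DESeq2 size factors in place of TMM the ratio was 0.16 (−0.0029 to 0.33) and its interval included 0. Ppargc1a (ENSMUSG00000029167) maps to chromosome 5, minus strand, from 51454250 to 51567726 in GRCm38. A count per gene does not separate its transcripts, which start at more than a single promoter and encode different forms of PGC-1α.

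Ppargc1b, which encodes the related coactivator PGC-1β, had 107 flox/flox counts and 127 scKO counts. Its log2 ratio of 0.30 (−0.08 to 0.68) was the furthest from 0 among the 10 genes, and with this few counts the interval included 0. Pprc1 encodes PRC, a PGC-1 relative induced when cells enter growth. It had 203 and 228 counts and a log2 ratio of 0.22 (−0.06 to 0.50). All 3 coactivators were thus higher in the scKO library by value, and for Ppargc1b and Pprc1 the difference was not detectable at this depth. The balance between Ppargc1a and Ppargc1b, which does not depend on how the libraries are scaled, was close in both libraries. There were 524 counts of Ppargc1a per 100 of Ppargc1b in flox/flox (426 to 651) and 481 in scKO (397 to 587).

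The ERRs are orphan nuclear receptors that bind DNA without a known natural hormone and serve as main docking sites of PGC-1. Esrra, which encodes ERRα, had 947 flox/flox counts and 1086 scKO counts, or 65.2 and 77.4 CPM. The scKO library was higher by 18.8%, a log2 ratio of 0.25 (0.12 to 0.38) whose interval stayed above 0 under the 4 scalings tried. Esrrg, which encodes ERRγ, the receptor tied to oxidative fibres and their capillaries, had 379 and 387 counts and a log2 ratio of 0.08 (−0.13 to 0.29). Esrrb, best known from pluripotent and inner ear cells, was low, with 96 and 106 counts and a log2 ratio of 0.19 (−0.22 to 0.61). Esrra was the only receptor of the 3 whose interval left out 0, and it was also the most deeply counted. The intervals of the 3 receptors overlapped each other, so their ratios were not shown to differ. Esrra (ENSMUSG00000024955) maps to chromosome 19, minus strand, from 6910977 to 6921813.

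Perm1, which encodes a muscle protein induced by PGC-1 and ERRs that in turn promotes their program, was the most deeply counted of the 10 genes. It had 2936 flox/flox counts and 3272 scKO counts, or 202 and 233 CPM. The scKO library was higher by 15.5%, a log2 ratio of 0.21 (0.14 to 0.28), and this held under the 4 scalings. Within a library, Perm1 kept nearly the same count relative to Esrra, with 310.0 per 100 Esrra counts in flox/flox (288 to 334) and 301 in scKO (281 to 323). Ppargc1a likewise had 59.2 counts per 100 of Esrra in flox/flox (53.3 to 65.8) and 56.3 in scKO (50.9 to 62.2). These pairs were taken among the 3 genes whose intervals lay above 0, so the closeness of their ratios is a description. Perm1 (ENSMUSG00000078486) maps to chromosome 4, plus strand, from 156215868 to 156221307.

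The 250 bases before the annotated start are shown for the 4 genes whose intervals left out 0, so that motifs bound by the factors described here can be seen in place; these 4 windows were chosen after the values were seen. Sequences are from the RefSeq annotation of GRCm38.p6, 5′ to 3′ on the strand of the gene, and cover chr19:6921809-6922058 (Esrra, minus strand), chr4:156215677-156215926 (Perm1, plus strand), chr10:71238045-71238294 (Tfam, minus strand) and chr5:51567726-51567975 (Ppargc1a, minus strand). Capitals mark motif matches on either strand.
Esrra: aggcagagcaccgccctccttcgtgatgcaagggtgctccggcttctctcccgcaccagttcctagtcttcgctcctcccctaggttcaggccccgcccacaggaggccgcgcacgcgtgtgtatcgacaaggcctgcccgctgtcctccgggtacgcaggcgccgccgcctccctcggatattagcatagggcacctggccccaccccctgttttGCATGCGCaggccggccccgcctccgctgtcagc
Perm1: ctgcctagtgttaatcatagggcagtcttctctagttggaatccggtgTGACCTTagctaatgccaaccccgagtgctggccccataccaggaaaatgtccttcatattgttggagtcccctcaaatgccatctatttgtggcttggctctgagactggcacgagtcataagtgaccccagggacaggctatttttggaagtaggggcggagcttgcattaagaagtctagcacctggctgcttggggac
Tfam: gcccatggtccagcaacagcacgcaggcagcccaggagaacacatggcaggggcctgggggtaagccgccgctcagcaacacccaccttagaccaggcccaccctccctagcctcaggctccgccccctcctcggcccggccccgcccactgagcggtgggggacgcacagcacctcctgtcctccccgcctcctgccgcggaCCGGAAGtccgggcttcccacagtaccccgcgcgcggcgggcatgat
Ppargc1a: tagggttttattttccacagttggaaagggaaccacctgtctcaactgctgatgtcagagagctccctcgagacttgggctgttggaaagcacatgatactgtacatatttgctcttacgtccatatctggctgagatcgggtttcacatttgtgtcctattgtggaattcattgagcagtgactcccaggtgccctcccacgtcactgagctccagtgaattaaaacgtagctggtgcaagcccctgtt

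The motifs searched on both strands were the ERR core AAGGTCA, the NRF-1 core GCATGCGC, the GABP core CCGGAAG, the E-box CACGTG that CLOCK and BMAL1 bind, and the cyclic AMP response element TGACGTCA. No overlap between matches occurred in the printed windows. Esrra held the NRF-1 core, with its first base 34 bases before the start, and 2.26% of all 32851 promoter windows of this length held that motif. Perm1 held the ERR core on the opposite strand, 202 bases before the start, a motif found in 4.08% of all windows. Tfam held the GABP core 47 bases before the start, and so did Gabpa, on the opposite strand, 93 bases before its own start. The GABP core was found in 6.91% of all windows. No E-box (6.02% of all windows) and no cyclic AMP response element (1.55%) was matched in the 14 windows of the 9 genes that the promoter table holds. The response element was searched only in the full form TGACGTCA, and shorter forms of it were not searched. The cores are shortened forms, taken up after the promoter sequences had been seen, so the matches are no independent evidence. Of the longer forms, TCAAGGTCA for ERRs (0.387% of all windows) and the longer NRF-1 element (0.782%) were in none of the windows of these genes. ACCGGAAGT, the longer GABP form (0.804%), was found for Tfam but not for Gabpa. A match is a run of letters in this window and does not show binding. The GENCODE models of Tfam, Perm1, Gabpa and, by a few bases, Esrra begin inside these windows. Measured from the outermost GENCODE start, the GABP cores of Tfam and Gabpa lie past the start, and the matches of Perm1 and Esrra lie before it.

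The nuclear respiratory factors were close to even. Nrf1, a DNA-binding activator of respiratory genes, had 93 flox/flox counts and 93 scKO counts, a log2 ratio of 0.05 (−0.38 to 0.48). Gabpa, the DNA-binding subunit of GABP (also called NRF-2), had 524 and 536 counts and a log2 ratio of 0.08 (−0.09 to 0.26). Neither library stood above the other beyond counting error for either gene. For Nrf1 the interval ran from 0.769-fold to 1.40-fold, so a difference within those bounds was not detectable at this depth. The partner subunits of GABP, Gabpb1 (110 and 103 counts) and Gabpb2 (295 and 265 counts), also had intervals that included 0, at log2 ratios of −0.04 (−0.45 to 0.36) and −0.10 (−0.35 to 0.14).

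Tfam, whose protein coats mitochondrial DNA and starts its transcription, was the gene that went the other way. It had 675 flox/flox counts and 562 scKO counts, or 46.4 and 40.1 CPM. The scKO library was lower by 13.7% (fold 0.863, 0.770 to 0.966), a log2 ratio of −0.21 (−0.38 to −0.05), and the interval stayed below 0 under the 4 scalings, with −0.17 (−0.34 to −0.01) under total counts as the nearest to 0. Its interval lay wholly below those of 3 genes, Ppargc1a, Esrra and Perm1, and overlapped those of the other 6. The intervals of the 9 genes other than Tfam, compared after its value was seen, all shared the range 0.14 to 0.26. Tfam (ENSMUSG00000003923) maps to chromosome 10, minus strand, from 71225464 to 71238280, and no other annotated gene overlaps it.

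Ratios between genes of the same library need no scaling; those below were chosen after Tfam was seen to lie apart. In flox/flox there were 71.3 Tfam counts per 100 of Esrra (64.5 to 78.8), and in scKO there were 51.7 (46.7 to 57.4). Per 100 counts of Perm1 there were 23.0 of Tfam in flox/flox (21.1 to 25.01) and 17.2 in scKO (15.7 to 18.8). Per 100 of Ppargc1a the values were 120 (107 to 135) and 92.0 (81.9 to 103), and the scKO interval included 100. These count ratios do not rank the levels. Per kilobase of merged exons (overlapping exons counted once), Tfam stood above Ppargc1a in both libraries. The levels were 10.3 against 5.78 in flox/flox and 9.15 against 6.70 in scKO. For Esrra, Perm1 and Ppargc1a the intervals of these count ratios did not overlap between the libraries. Per 100 of Gabpa they did, at 129 (115 to 145) and 105 (93.0 to 118). Esrra, Perm1 and Ppargc1a are the 3 genes whose intervals lay above 0, and Tfam is the 1 below. Their separation largely restates those calls and is a description.

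**Figure D2:**
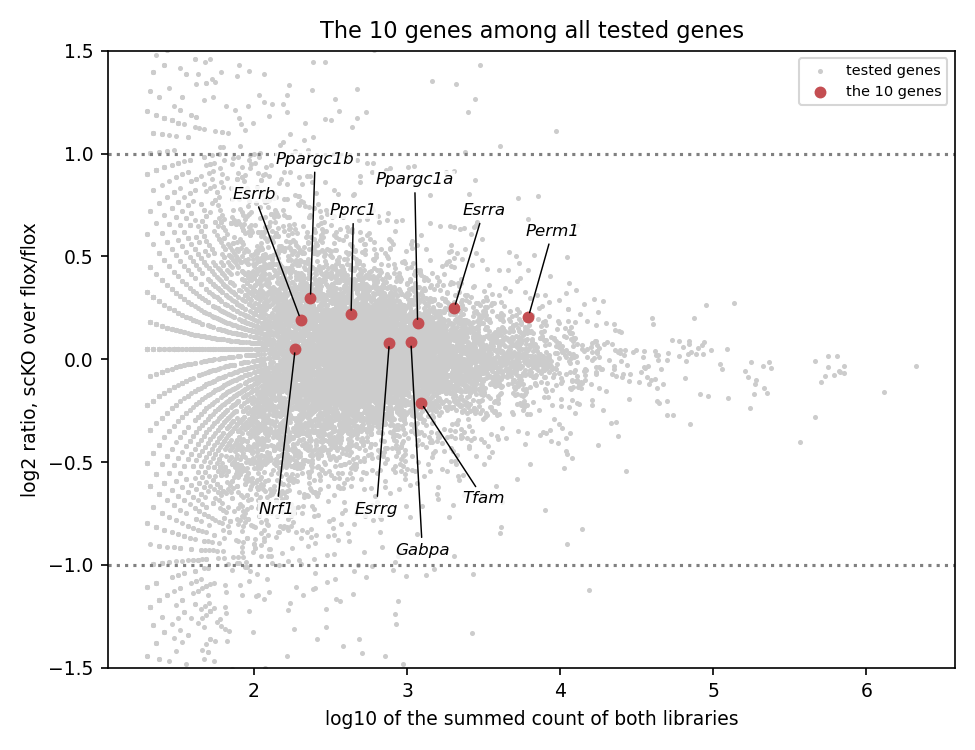
Each grey point is a tested gene, placed by the log10 of its summed count (x axis) and its log2 ratio (y axis, scKO over flox/flox), with the 10 genes in red; 175 tested genes beyond a ratio of 1.5 in either direction are not drawn, and dotted lines mark 2-fold. All 10 red points lie between −0.21 and 0.30, within the cloud of genes of similar counts.

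The messenger RNAs that mitochondrial DNA encodes, whose transcription needs Tfam protein, took 25.7% of the counts in both libraries over 13 genes, with log2 ratios from −0.11 to 0.52 and a median of −0.04. Of the 20 listed genes that transcribe, copy and maintain mitochondrial DNA, 19 were tested, and the median log2 ratio was −0.0091, a value that changed sign with total-count scaling (0.03) and with a summed count of at least 100 (0.02). Over all tested genes, 12.8% had an interval above 0 and 12.3% an interval below 0. In this list none had an interval above 0, 2 had an interval below 0 and 17 included it. The 2 were Tefm, the mitochondrial elongation factor (157 and 115 counts, −0.40, −0.76 to −0.04), and Mterf1a, a termination factor with only 17 and 6 counts (−1.38, −3.08 to −0.04). Mterf1a has a near-identical copy, Mterf1b (9 and 10 counts), and reads could be divided between them. Polg2, the accessory subunit of the mitochondrial DNA polymerase, stood at 0.49 (−0.18 to 1.19) and the primase gene Primpol at −0.57 (−1.31 to 0.12). Tfb2m, the transcription factor that works beside Tfam, had 434 and 440 counts (0.07, −0.12 to 0.27), and the RNA polymerase gene Polrmt had 312 and 325 (0.11, −0.12 to 0.34). Per 100 counts of Tfb2m there were 156 of Tfam in flox/flox (138 to 176) and 128 in scKO (113 to 145), and these intervals overlapped.

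Levels per length differed over a wide range between the 10 genes. In deposited FPKM, Perm1 was highest, at 51.1 in flox/flox and 60.6 in scKO, followed by Esrra at 15.8 and 19.2 and Tfam at 8.63 and 7.64. Gabpa (4.92 and 5.35) and Ppargc1a (4.53 and 5.25) came next, and their counting intervals overlapped in both libraries. The gene length behind the FPKM values adds up every distinct exon, even where exons of different transcripts overlap. It was within 1% of that sum in GENCODE M21 for 8 of the 10 genes, the others being Esrra and Pprc1. This lowers the FPKM of genes with many transcripts, so levels were also computed per kilobase of merged exons. All levels per length are scaled by the total counts of each library, without TMM, unlike the CPM and ratios given before. Under this scaling every log2 ratio is higher by 0.04, so levels per length are compared here between genes of the same library.

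On merged exons Esrrg stood at 4.15 in flox/flox and 4.50 in scKO (the unit of FPKM), against 1.81 and 1.97 FPKM. It was then above Pprc1 (2.19 and 2.62) and Ppargc1b (1.82 and 2.30), which overlapped each other, whereas in FPKM it overlapped Ppargc1b in both libraries. The order on merged exons was the same in both libraries: Perm1, Esrra, Tfam, Gabpa, Ppargc1a, Esrrg, Pprc1, Ppargc1b, Esrrb and Nrf1. Nrf1 was lowest on either scale, at 0.614 and 0.653 per kilobase of merged exons. On this scale Ppargc1a made up 59.0% of the summed level of the PGC-1 family in flox/flox and 57.6% in scKO. Esrra made up 73.7% and 75.6% of the ERR family, Esrrg 20.9% and 19.0%, and Esrrb 5.42% and 5.35%. These shares depend on the length used. In deposited FPKM they were 86.7% and 87.8% for Esrra, 9.96% and 8.98% for Esrrg, and 3.31% and 3.22% for Esrrb. The make-up of both families was thus nearly the same in the pair of libraries.

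**Figure D3:**
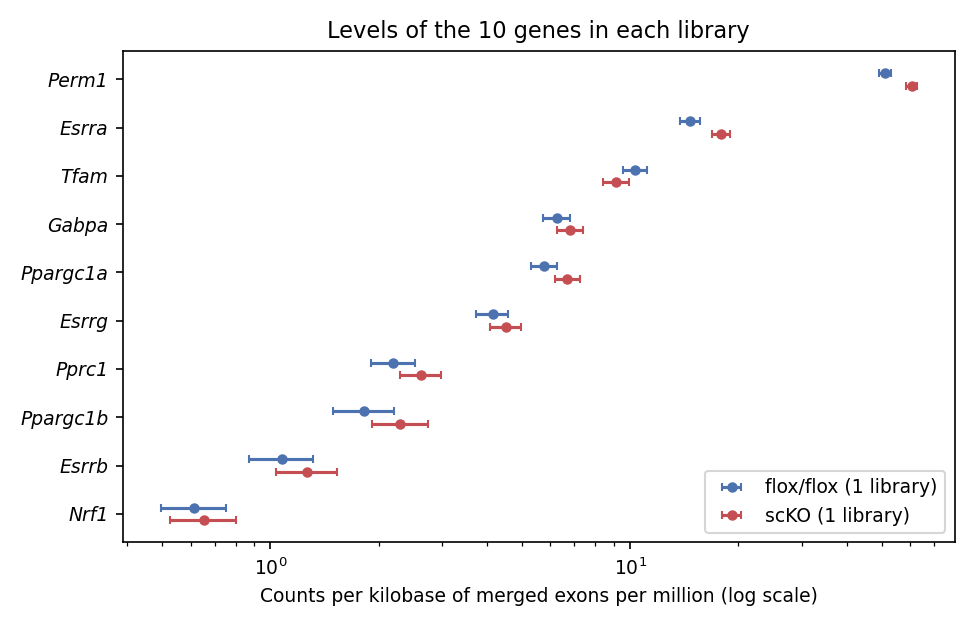
Levels per kilobase of merged exons, scaled by total counts without TMM (x axis, log scale), are drawn for the 10 genes in the flox/flox library (blue) and the scKO library (red), with 95% counting intervals. Perm1 is highest (51.1 and 60.6) and Nrf1 lowest (0.614 and 0.653), and Tfam is the gene whose scKO point lies to the left of its flox/flox point.

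Exons of 3 of the 10 genes overlap those of other genes, and the strand setting and the handling of shared reads are not given in the sources used here. Gabpa shares 397 exonic bases (6.98% of its merged exons) with Atp5j on the opposite strand, a far more abundant gene with 3135 and 3171 counts (0.07, −0.0041 to 0.14). Pprc1 shares 177 bases (2.82%) with Ldb1 (370 and 343 counts), and Esrra shares 73 bases (1.66%) with Trmt112 (57 and 45 counts). The ratio of neither Ldb1 (−0.06, −0.27 to 0.16) nor Trmt112 (−0.29, −0.89 to 0.30) left out 0. Esrra also shares 91 bases (2.07%) with the microRNA gene Mir6990 on its own strand. The part of shared reads in the ratios of Gabpa, Pprc1 and Esrra was not tested.

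Partners and cofactors of these factors, 15 genes, had a median log2 ratio of −0.00072, which changed sign with total-count scaling (0.04). Intervals lay above 0 for 3 and below 0 for 3. Beside this and the other lists, 12.8% of all tested genes had an interval above 0 and 12.3% below. At a summed count of at least 1000 these shares were 23.1% and 20.03%. Med1, the Mediator subunit that docks nuclear receptors, had 323 and 429 counts (0.46, 0.25 to 0.67). Ppara, the fatty acid receptor that PGC-1α coactivates, had 95 and 127 (0.47, 0.08 to 0.87), and Hcfc1, a cofactor that binds PGC-1 proteins, had 764 and 865 (0.23, 0.09 to 0.37). Lower in scKO was Mef2c, a muscle transcription factor that activates the Ppargc1a promoter, with 9009 and 4909 counts (−0.82, −0.88 to −0.77). The other 2 below 0 were Mef2d (−0.11, −0.19 to −0.04) and Nrip1, a corepressor that opposes PGC-1α (−0.15, −0.29 to −0.01).

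Among regulators upstream of PGC-1α, 17 genes were listed, 1 of them not analysed here and Camk4 too low at 3 and 0 counts; over the 15 tested the median log2 ratio was 0.09, with 4 intervals above 0 and 2 below. Mapk14, which encodes p38α, a kinase that activates PGC-1α and its transcription, was the only one past 2-fold, with 610 and 1489 counts (1.34, 1.20 to 1.48). Atf2, a substrate of p38 that acts at the Ppargc1a promoter, had 241 and 288 counts (0.31, 0.06 to 0.56). Camk2a, a calcium-dependent kinase, was lower with 2019 and 1515 counts (−0.36, −0.46 to −0.27), and Kat2a, the acetyltransferase GCN5 that inhibits PGC-1α, stood at 0.20 (−0.03 to 0.44). The AMP-activated kinase subunit Prkaa2 (4624 and 4740 counts, 0.09, 0.03 to 0.15) and the calcineurin subunit Ppp3ca (0.13, 0.06 to 0.20) were the other 2 above 0, and the kinase subunit Prkab2 was the other below (−0.07, −0.15 to −0.0039). The deacetylase gene Sirt1 stood at 0.17 (−0.13 to 0.47).

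Target genes of PGC-1α and ERRs in muscle, 22 in number, had a median log2 ratio of 0.06, with 13 intervals above 0, 4 below and 5 that included it. Shares above and below 0 were 12.8% and 12.3% over all tested genes, and 23.1% and 20.03% at a summed count of at least 1000. Ratios close to 0 could leave it out where counts were high, as with Atp5b at 0.03 (0.0038 to 0.05). Fndc5, the precursor of the secreted peptide irisin, was the highest, with 891 and 1333 counts (0.63, 0.51 to 0.76). Pdk4, the kinase that restrains pyruvate oxidation, had 7344 and 3804 counts (−0.90, −0.95 to −0.84), and Ucp3, a mitochondrial carrier, had 2029 and 1407 (−0.48, −0.58 to −0.38). Angptl4 (27 and 20 counts) stood at −0.37 (−1.29 to 0.51). The targets lay on both sides of 0: citrate synthase (Cs) and Cox5b, with Pdk4 and Ucp3, were the 4 below 0, at −0.07 (−0.11 to −0.03) and −0.11 (−0.20 to −0.03).

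The 15 genes of mitochondrial fusion, fission and cristae had a median of 0.11, with 7 intervals above 0 and 1 below. Over all tested genes 12.8% lay above 0, and 23.1% did so at a summed count of at least 1000. Mfn2, a mitofusin and an ERRα target, had 5260 and 6006 counts (0.24, 0.19 to 0.30), and the fission adaptor gene Fis1 had 643 and 729 (0.23, 0.08 to 0.39). Oma1, an inner membrane protease, stood at 0.23 (−0.02 to 0.47). Immt, the core of the cristae junction complex, was the 1 below, with 3811 and 2588 counts (−0.51, −0.58 to −0.43). The 16 genes of mitochondrial protein import had a median of 0.00081 (−0.0087 with DESeq2 size factors), with 2 intervals above 0 and none below. Of these, Timm17a, a channel subunit of the inner membrane, had 1434 and 1592 counts (0.20, 0.10 to 0.31) and the chaperone gene Hspa9 stood at 0.07 (0.02 to 0.12). The interval of Tomm34 (−0.22, −0.58 to 0.14) included 0. So did those of Tomm7 (0.13, −0.09 to 0.34) and Tomm20 (0.11, −0.07 to 0.29), of the outer membrane machinery.

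**Figure D4:**
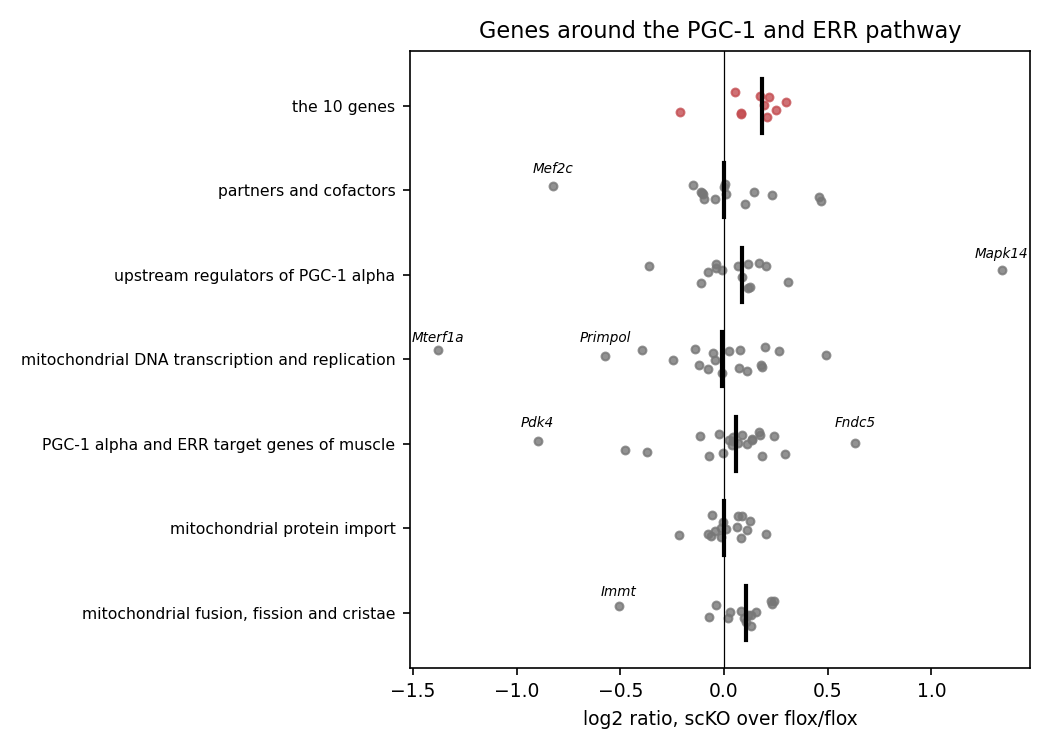
Each point is a tested gene and its log2 ratio (x axis, scKO over flox/flox), grouped by list (rows) with the median of the list as a black bar and the 10 genes in red on top. Medians lie between −0.0091 and 0.18, and the genes furthest from 0 are Mterf1a (−1.38), Mapk14 (1.34), Pdk4 (−0.90) and Mef2c (−0.82).

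Marker transcripts of the fibres and of other cell types give the setting of these values. In bulk muscle, fewer cells of a type and less RNA per cell cannot be told apart. Beside the marker lists, 12.8% of all tested genes had an interval above 0 and 12.3% below. At a summed count of at least 1000 these shares were 23.1% and 20.03%. All 6 skeletal muscle fibre markers had intervals below 0, with ratios between −0.28 and −0.05. They were present at high counts, where ratios close to 0 could leave it out, as with Ryr1 at −0.05 (−0.06 to −0.03). Their summed level was 121399 CPM in flox/flox and 110434 in scKO. Of 7 markers of slow or oxidative fibres, in which Ppargc1a is most active, 5 intervals lay below 0 and 1 above, and the summed level was 7909 and 7298 CPM. The markers were mixed, with Tnni1 higher in the scKO library (0.26, 0.16 to 0.37) and Myl3 lower (−0.31, −0.35 to −0.27). Of 5 endothelial markers, 3 intervals lay above 0, none below, and the summed level was 214 and 250.4 CPM. The part of either cell type in the ratios of the 10 genes was not tested. Brown fat, another tissue rich in Ppargc1a, was not detected by its defining gene Ucp1, with 0 counts in both libraries, which allows up to 0.206 CPM in flox/flox and 0.214 in scKO. The brown fat list, 4 genes, summed to 95.4 and 103 CPM, of which Cox7a1, a gene that muscle also expresses, gave 92.1 and 101. White adipocyte markers summed to 11.3 and 11.8 CPM over 5 genes, macrophage markers to 14.9 and 15.8 over 4, and all of their intervals included 0. Smooth muscle markers, 4 genes, summed to 76.0 and 83.5 CPM with 1 interval above 0 and 1 below. The 4 satellite cell markers summed to 21.8 and 22.5 CPM, with Pax7 as the 1 interval below 0 (69 and 39 counts, −0.76, −1.38 to −0.19). The other 3 intervals included 0, with Myf5 at 0.61 (−0.19 to 1.45), Cdh15 at 0.18 (−0.10 to 0.45) and Calcr at −0.16 (−1.41 to 1.05). The median of this list was 0.0061.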

How the data were processed

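RNA sequencing of 2 libraries of mouse gastrocnemius was analysed, 1 per genotype. The authors deposited whole-number gene counts for both libraries and FPKM values for each, per the file headers. The submitters' processing notes name CASAVA, HISAT2 2.0.4, StringTie 1.3.0 and GRCm38; annotation release, counting options and strand setting are not given in the sources used here. The header of the count table lacks a tab, and its columns were read in the order of the names there; over 7685 genes with at least 100 counts in each library, the log2 ratio of count to FPKM differed between libraries with an SD of 2.5e-06 in that order and 0.519 when swapped. Symbols were matched for 34267 of 34745 identifiers. Positions and exons came from GENCODE M21 (GRCm38) and promoter windows from RefSeq (GRCm38.p6).

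Library sizes were scaled with TMM in edgeR 4.0.16 (R 4.3.3). A log2 ratio used a prior count of 0.5, and its 95% interval conditions on the summed count (exact binomial, Clopper-Pearson). Levels have exact Poisson intervals, and ratios within a library have Clopper-Pearson intervals. All of these, and the limit of 3 counts for a count of 0, cover counting error only: PCR copies are not independent molecules and animals may differ. Genes with a summed count of at least 20 were tested; 2-fold apart means a scaled-count ratio of at least 2 or at most 0.5 without the prior and an interval that leaves out 0 on the log2 scale. The prior was dropped from this rule after both counts were seen. The calculation was tested on simulated counts. No p-value was computed. One count was 0.0688 CPM in flox/flox and 0.0713 in scKO.

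The members and the 6 pathway and 8 marker lists were chosen with earlier results of these data known, and list medians are descriptions. Named genes were the 10 members, Cipc and, from each pathway list, the 4 tested genes with the largest absolute log2 ratio. Other names, such as Gabpb1, Tfb2m, Sirt1, Atp5b and the overlap partners, were added after their values were seen. With 2 libraries no gene was named for likeness to a member. Alternatives were total-count scaling, DESeq2 1.42.0 size factors, TMM without mitochondrial genes, a prior count of 5, other count minimums, log2 of FPKM + 1 and merged-exon lengths. Python 3.11.15, numpy 2.4.6, scipy 1.17.1, pandas 2.3.3 and matplotlib 3.10.9 were used.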

Additional observations from a re-analysis of the deposited data

How the results depend on the processing

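The 50 alternative ratios of the 10 genes (3 scalings, a prior count of 5, and FPKM + 1) all lay within the counting intervals, moving by at most 0.10. The 49 alternative list medians moved by at most 0.06, and no called value changed sign. A scaling shifts every ratio alike, by 0.04 (total counts), −0.0095 (DESeq2) and −6.7e-05 (TMM without mitochondrial genes, in effect TMM again). These shifts are small beside the intervals, and FPKM rests on the same counts. That the ratios stayed within their intervals was thus largely set in advance. Medians close to 0 changed sign for partners, mitochondrial DNA and import. The count of genes with an interval above 0 was 3 except with DESeq2 size factors, where it was 2 because Ppargc1a included 0. A summed count of at least 1000, added after the data were seen, left these counts at 3 and 1. Over all genes, 189 were at least 2-fold higher and 242 lower (183 and 238 with the prior count, an alternative added after the data were seen); the counts were 58 and 68 with a summed count of at least 100, and 32 and 25 on log2 of FPKM + 1, which shrinks low values. Without a minimum, 278 were higher and 369 lower. Per kilobase of merged exons, in flox/flox and scKO, the levels moved beyond counting error to 5.78 and 6.70 for Ppargc1a, 2.19 and 2.62 for Pprc1, 14.7 and 17.9 for Esrra, 1.08 and 1.27 for Esrrb, 4.15 and 4.50 for Esrrg, 0.614 and 0.653 for Nrf1, 6.26 and 6.81 for Gabpa, and 10.3 and 9.15 for Tfam. Ppargc1b and Perm1 stayed within it. Depth limits Nrf1, Esrrb and Ppargc1b most, with under 250 counts each in sum. No paired analysis was possible because each genotype has 1 library, and for the same reason no library could be left out.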
